A study of Mus musculus with 10 samples.

Results

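*Slc2a2*, *Slc2a1*, *Slc2a3*, *Hk1*, *Hk2*, *G6pc2* and *G6pc3* encode the transporters, kinases and phosphatases that decide how fast glucose enters an islet cell and is held there as glucose-6-phosphate. They were chosen by gene symbol, and all 7 were found among the 35214 genes of the gene table, with 64 of the 167895 splicing events. Islets were taken from 5 male NZO/HiBomDife (NZO) mice, an obese and diabetes-prone strain, and from 5 male C57BL/6J.V-Lepob/ob (B6-ob/ob) mice, which carry the Lep ob mutation and resist diabetes, with 1 RNAseq library per mouse. Both strains had received a carbohydrate-free, high-fat diet until 18 weeks of age and then a diet with carbohydrates for 2 days. Strain background and the leptin mutation cannot be told apart in this design, and whole islets hold several cell types besides β-cells.

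In the β-cell, glucose metabolism is the sensor for insulin secretion. GLUT2, the low-affinity transporter encoded by *Slc2a2*, lets glucose equilibrate across the membrane of rodent β-cells, where it is then phosphorylated. The high-affinity hexokinases encoded by *Hk1* and *Hk2* are kept low in mature β-cells, since they would work at full rate already at low glucose. G6PC2, the islet-specific glucose-6-phosphatase, turns the product back to glucose and thereby opposes phosphorylation.

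The tables used here hold 1 value per strain or 1 value over both strains, and none per mouse. Gene levels are the authors' mean normalized counts over all 10 libraries, so that no level of a single strain is given here. Splicing is given as PSI (proportion spliced in), from 0 to 1, as the authors' pooled value of each strain. For a cassette exon or retained intron it is the proportion of transcripts that include the segment. For neighbouring start or end segments it is read here as the share of transcripts that use that start or end, since the values of the 7 such pairs added up to 0.998 to 1.01, although transcripts with the outer start or end also run through the inner segment. As there are no values per mouse, neither SD nor test nor depth accompanies them, and whether a difference exceeds the spread between mice was not tested. The β-cell identity of the material was checked on the same scale: the 8 β-cell markers had 2214 to 7273317 mean normalized counts per kb of transcript, with *Ins2* as the highest. The 4 α-cell markers ranged from 76.1 to 220775 and the 5 acinar markers from 55.8 to 458 per kb, and all 37 markers examined were above 0. The 2 δ-cell markers, *Hhex* and *Sst*, had 29.4 and 33855 per kb. *Gcg* of α-cells and *Sst* were thus above *Pdx1*, the lowest β-cell marker at 2214 per kb. So were *Spp1* of duct cells, with 11759, and the globin genes *Hbb-bs* and *Hba-a1* of red cells, with 3174 and 2548. The endothelial markers, at 331 to 882 per kb, were above *Hk1* and *Slc2a1*. Since these are means over both strains, the part of other cell types in a strain difference was not tested, and fewer cells of a type and less RNA per cell cannot be told apart in whole islets.

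The segments on which the splicing results turn are shown first, read from the GRCm38 (mm10) reference, which is the C57BL/6J sequence and not that of NZO. The cassette exon of *G6pc2* at chr2:69225812-69225927 (plus strand) is 116 nt long, codes for protein throughout and is exon 4 of 5 in the longer of both protein-coding transcripts. When it is left out, the reading frame shifts, and the junction of the flanking exons is shown with 30 nt before it and the coding bases after it, where capitals mark the stop codon that the new frame meets. The cassette exon of *Hk1* at chr10:62291975-62292043 (minus strand) has 69 coding nt, a multiple of 3. For *Slc2a1*, a stretch of 30 nt at chr4:119108761-119108790 (plus strand) lies between the 2 transcription starts that its splicing events set apart. The letters TATAAA, those of a TATA box, are in capitals.
*G6pc2* exon 4: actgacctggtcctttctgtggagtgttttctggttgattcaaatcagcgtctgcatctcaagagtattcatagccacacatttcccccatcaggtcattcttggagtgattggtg
*G6pc2* junction without exon 4: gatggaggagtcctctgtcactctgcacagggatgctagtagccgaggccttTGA
*Hk1* cassette exon: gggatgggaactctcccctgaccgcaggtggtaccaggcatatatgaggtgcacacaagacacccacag
*Slc2a1* between the starts: tggcggcggtccTATAAAaaggcagctccg

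The levels of the 7 genes ranged widely. *G6pc2* was the highest, with 53107 mean normalized counts per kb of its longest annotated transcript, above 99.9% of the 22493 genes with a value above 0 and a known length. *Slc2a2* followed with 1922 per kb and *G6pc3*, the glucose-6-phosphatase found in most tissues, with 996.5 per kb. *Hk1* had 69.1 and *Slc2a1*, which encodes the widespread transporter GLUT1, had 57.8 per kb. *Slc2a3*, which encodes GLUT3, the high-affinity transporter of neurons, had 11.9 and *Hk2*, the insulin-responsive hexokinase of muscle and fat, 3.49 per kb. Thus *G6pc2*, *Slc2a2* and *G6pc3* stood above at least 92.4% of all genes, while the high-affinity transporters and hexokinases stood lower: 53.8% of genes were below *Hk1*, 52.0% below *Slc2a1*, 39.8% below *Slc2a3* and 29.9% below *Hk2*. These places depend on the many genes with low counts: among the 15151 genes with at least 10 counts, 31.4% were below *Hk1*, 28.8% below *Slc2a1*, 11.5% below *Slc2a3* and 2.20% below *Hk2*.

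Within each role, one member was far above the others. Per kb, the level of *Slc2a2* was 33.3 times that of *Slc2a1* and 162 times that of *Slc2a3*. Per kb of coding sequence these ratios were 53.5 and 136. *G6pc2* was 53.3 times as high as *G6pc3*, and *Hk1* 19.8 times as high as *Hk2*. *Hk1* and *Slc2a1* were close, at a ratio of 1.20, and changed places when counts were divided by the coding length, which gave a ratio of 0.818. With no spread over samples at hand, no order between neighbours was tested.

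**Figure D1:**
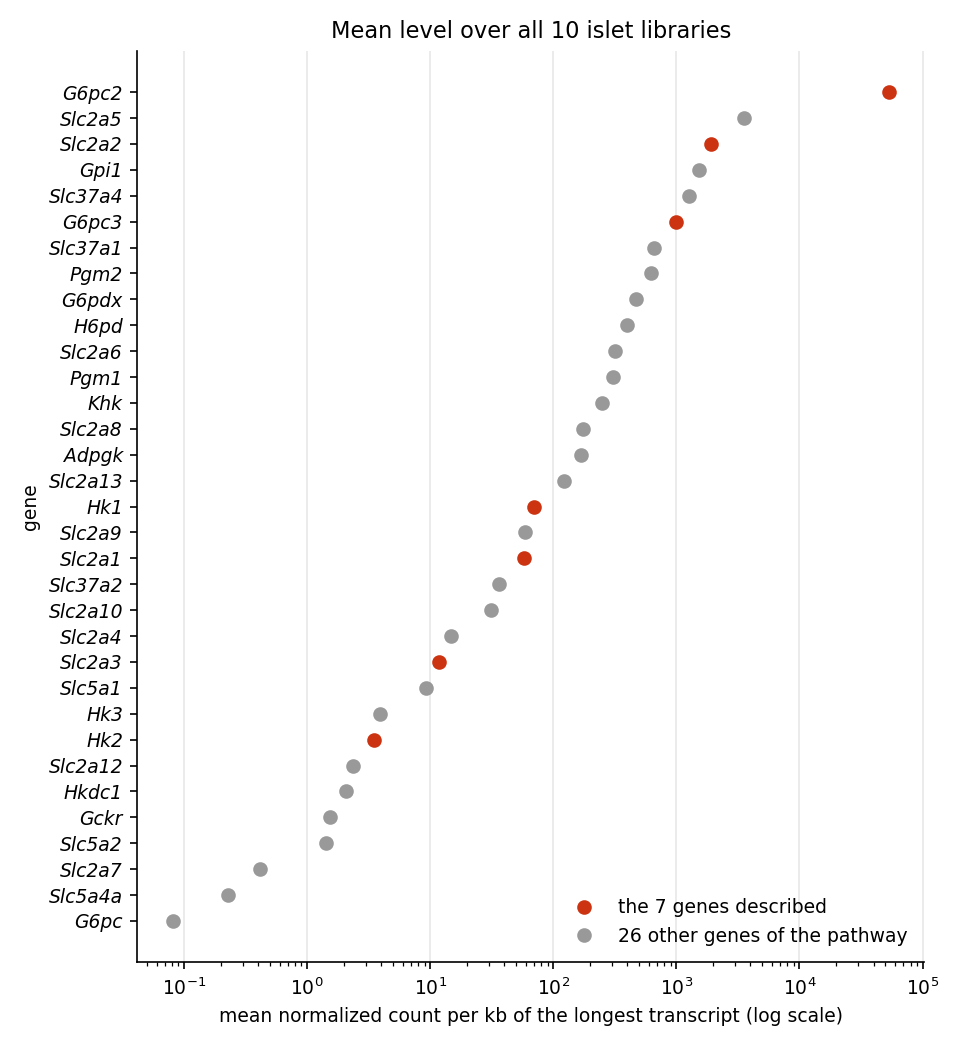
Mean normalized count per kb of the longest transcript (log scale, authors' mean over all 10 libraries of both strains) of the 7 genes (red) and 26 further genes of glucose uptake and glucose-6-phosphate metabolism (grey). *G6pc2* stands at 53107 and *Slc2a2* at 1922, whereas *Hk2* is at 3.49.

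Between the strains, most splicing events of these genes had nearly the same PSI. Of the 64 events, 2 differed by more than 0.1, the limit that the study uses for ∆PSI, and both belonged to the transcription starts of *Slc2a1*. The study also required a minimum probability, which was not applied here. Its reported events were cassette exons, retained introns and alternative splice sites, without starts or ends, so the counts here are not those of the study. Among all 167895 events, the same limit was passed by 14650 (8.73%). The median absolute difference was 0.00261 for the 64 events and 0.00911 for all events. These sets were not matched for event type or gene level. In 31 of the 64 events (48.4%) PSI was lower in NZO islets and in 33 it was higher, and 63.6% of all events were lower in NZO. For the 4 starts (2 lower, 2 higher) and the 10 ends (5 lower, 5 higher) the even split was built in. The PSI values of each such pair add up to about 1.

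The types of event differ in their background. None of the 48 cassette exons passed the limit, against 1.48% of all 110932 cassette exons, and their largest absolute difference was 0.0391. Of 4 tandem transcription starts, 2 passed, against 23.3% of 19655, but these 2 are complementary parts of one pair. None of the 10 tandem polyadenylation sites passed, against 29.4% of 22694, and these 10 also form complementary pairs. PSI was lower in NZO islets for 22 of the 48 cassette exons (45.8%) and for 72.0% of all cassette exons, where exons of 1 gene share their reads and are not independent.

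**Figure D2:**
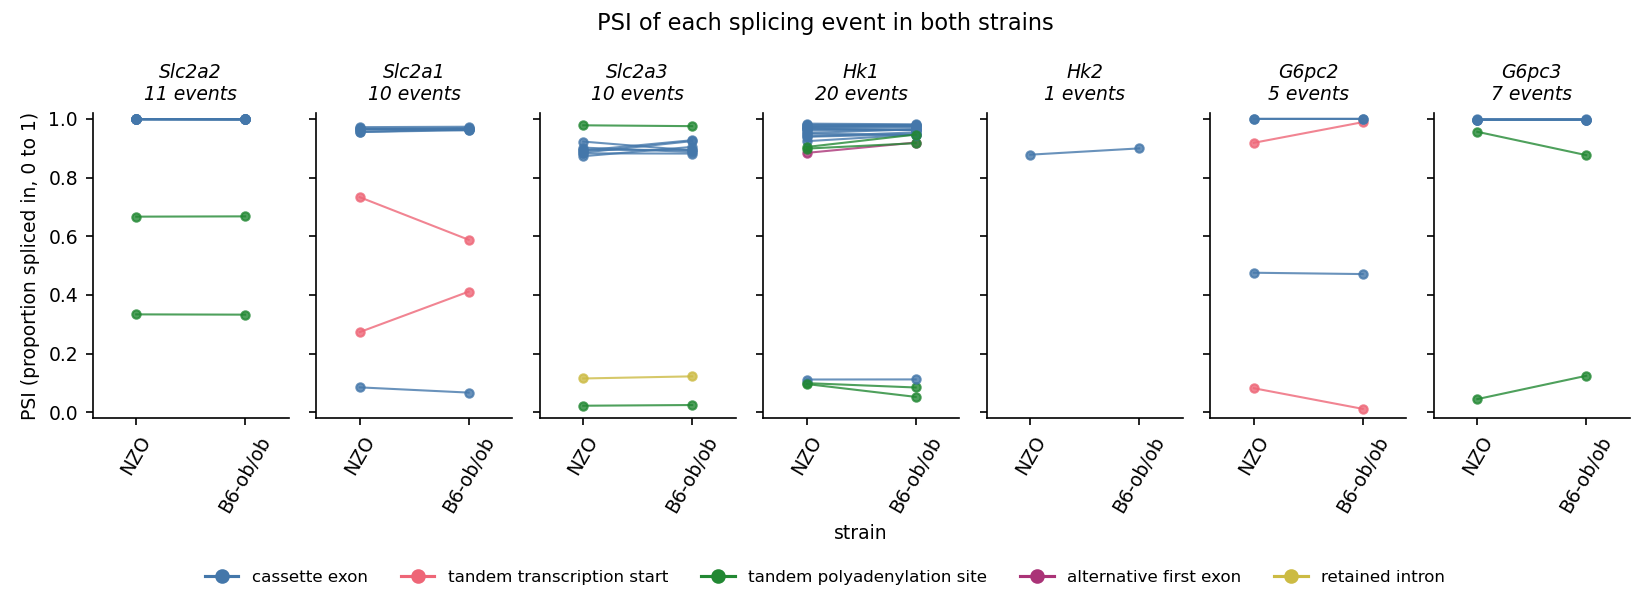
PSI (0 to 1) of all 64 events in NZO (left) and B6-ob/ob islets (right), 1 panel per gene, each point the authors' pooled value of 5 mice, lines joining the same event. Most lines are flat, and the steepest ones are the 2 start segments of *Slc2a1*, at 0.273 and 0.733 in NZO islets.

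*Slc2a1* was the gene with the largest difference. Its 5 annotated transcripts share the end of the first exon and differ in where it begins, and the events separate the first of these starts, at chr4:119108711, from the next one, 93 nt downstream at chr4:119108804. The upstream start had a PSI of 0.273 in NZO islets and 0.411 in B6-ob/ob islets, a difference of -0.138. The downstream start, with its segment of 169 nt, had a PSI of 0.733 in NZO islets, against 0.588 in B6-ob/ob islets, a difference of 0.145. Hence the upstream start had the smaller share in both strains, with the lower value in NZO. Whether this exceeds the spread between mice was not tested.

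The stretch printed above holds TATAAA at chr4:119108773-119108778, which begins 62 nt after the upstream and 31 nt before the downstream start. The RefSeq start of *Slc2a1*, at chr4:119108745, lies between these starts and before the motif. The letters TATAAA on either strand were found in 4473 of 32851 RefSeq promoter windows of 300 nt (GRCm38.p6; 13.6%), each from 250 nt before to 50 nt after a start. Of the 8 windows of 6 of the genes that could be matched, that of *Slc2a1* was the 1 with the motif. In that window the motif lies in the 50 nt after the RefSeq start, not in the 250 nt before it. Whether it serves any of these starts was not tested. GGGCGG, the GC box, was present on either strand in the windows of *Hk2* and *Slc2a1*, and in 35.7% of all windows, and CCAAT in those of *Hk2*, *Slc2a1* and *Slc2a2*, and in 37.4% of all. These matches describe the reference sequence alone.

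The cassette exons of *Slc2a1* showed smaller differences. An exon of 114 nt at chr4:119116007-119116120, annotated in 1 transcript alone, was rarely included, with a PSI of 0.0845 in NZO islets, against 0.0667 in B6-ob/ob islets. This was the largest difference among its cassette exons, at 0.0178. The other 7 cassette exons had PSI values of 0.955 to 0.973. Antisense genes overlap *Slc2a1*, *Slc2a2*, *Hk1* and *Hk2*, and as the strandedness of the libraries is not given in the sources used here, their reads cannot be told apart.

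No event of *Slc2a2* differed by more than 0.00096, the lowest such maximum of the 7 genes, while the median absolute difference was 0.00038 in *Slc2a2* and 0.0002 in *G6pc3*. Its 9 cassette exons had PSI values of 0.99817 to 0.99936, and all 9 were higher in NZO by 0.00027 to 0.00047. The largest difference among its cassette exons was in the exon of 93 nt at chr3:28705730-28705822, with 0.99864 in NZO islets, against 0.99817 in B6-ob/ob islets. Its 3′ end is divided into a proximal end segment of 1052 nt, which ends where a transcript with a retained intron is annotated to end, and a distal one of 3032 nt. The proximal segment had a PSI of 0.667 in NZO islets, against 0.668 in B6-ob/ob islets. The distal one had 0.333 in NZO islets, against 0.332 in B6-ob/ob islets. About the same partition of the 3′ end was thus seen in both strains, with differences of -0.00096 and 0.00091.

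*Slc2a3* had lower PSI values, from 0.873 to 0.927 over its 7 cassette exons. The exon of 188 nt at chr6:122735423-122735610 (minus strand) had 0.885 in NZO islets, against 0.924 in B6-ob/ob islets, a difference of -0.0391. A retained intron of 2534 nt had a PSI of 0.115 in NZO islets, against 0.122 in B6-ob/ob islets. The main polyadenylation segment had 0.978 in NZO islets, against 0.975 in B6-ob/ob islets. A processed pseudogene, *Gm4482*, overlaps the gene on the same strand, so that reads of both could be mixed.

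The 3 transporter genes have cassette exons of 4 lengths in common, which was looked at after the PSI values had been seen. Cassette exons of 163, 188, 105 and 102 nt occur in each of these genes in this order. Other lengths were listed in some of the genes: 204 nt in *Slc2a1* and *Slc2a2*, 161 nt in *Slc2a1* and *Slc2a3*, and 93 nt in *Slc2a2* and *Slc2a3*. In *Slc2a2* the exon of 188 nt had a PSI of 0.99917 in NZO islets, against 0.99879 in B6-ob/ob islets. In *Slc2a1* the exon of this length had 0.967 in NZO islets, against 0.966 in B6-ob/ob islets, so that it stood between those of *Slc2a2* and *Slc2a3* in both strains. The same order of the genes was found in both strains for the exons of 163, 105 and 102 nt. It is also the order of their mean normalized counts, 10706, 188 and 74.3. Exons of 1 gene share their reads, and whether the order goes beyond the level of the genes was not tested.

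**Figure D3:**
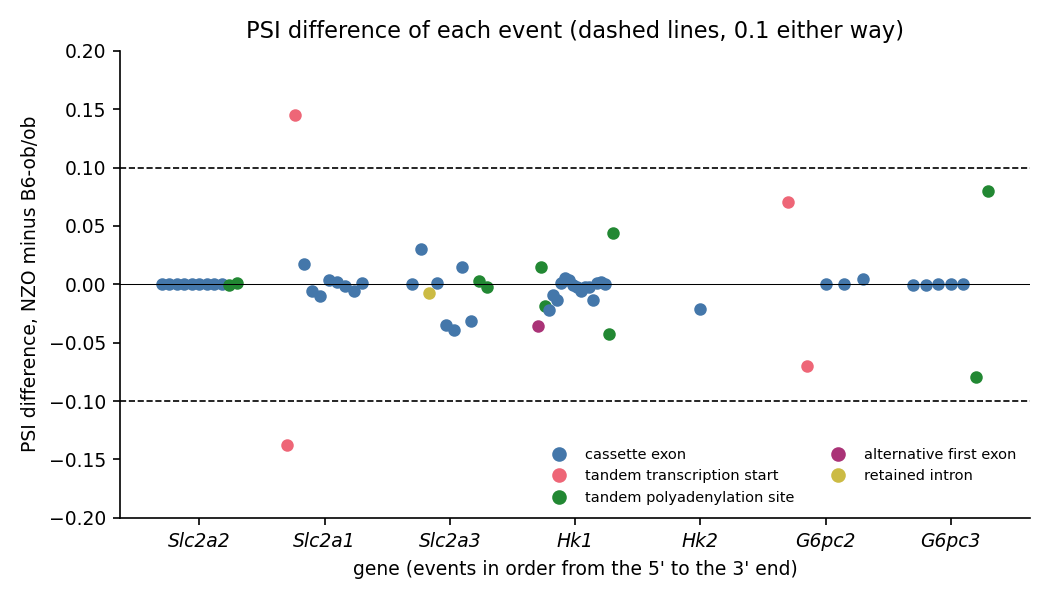
Difference in PSI (NZO minus B6-ob/ob) of each of the 64 events, grouped by gene and ordered from the 5′ to the 3′ end. The 2 points beyond the dashed lines at 0.1 either way are the start segments of *Slc2a1*, at -0.138 and 0.145.

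*Hk1* held 20 events and none passed the limit. The cassette exon of 69 nt printed above was mostly left out, with a PSI of 0.111 in NZO islets, against 0.112 in B6-ob/ob islets. Its inclusion would add coding sequence without a shift of the frame, and it is annotated in 2 of the 20 transcripts. *Hk1* is known for alternative first exons, used in testis and red cells among others. The one listed as an event, at chr10:62340013-62340542, had a PSI of 0.884 in NZO islets, against 0.919 in B6-ob/ob islets, a difference of -0.0353.

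At the 3′ end of *Hk1*, the distal polyadenylation segment of 249 nt had a PSI of 0.0959 in NZO islets, against 0.0521 in B6-ob/ob islets. This difference of 0.0437 was the largest of the gene. The proximal segment of 953 nt had 0.904 in NZO islets, against 0.946 in B6-ob/ob islets. Another pair of end segments, of 28 and 45 nt, lies inside the coding sequence, where transcripts are annotated with an end not found, and differed by 0.0148 and -0.0183.

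Hexokinase 1 consists of similar N-terminal and C-terminal parts, of which the C-terminal one is catalytic. Its exon lengths repeat along the gene, which was also looked at after the PSI values had been seen. Cassette exons of 149, 120, 96, 100, 184 and 156 nt occur in this order before the exon of 305 nt and again after it. In the 6 exons of the first run PSI was 0.924 to 0.967 in NZO and 0.945 to 0.964 in B6-ob/ob islets. In the 6 exons of the second run it was 0.952 to 0.984 in NZO and 0.962 to 0.981 in B6-ob/ob islets. The exon of the second run had the higher PSI in 5 of 6 pairs in NZO and in 6 of 6 in B6-ob/ob islets. Exons of 1 gene share their reads, so these pairs are not independent, and whether the runs differ was not tested. The largest difference between strains was in the exon of 149 nt of the first run, at chr10:62304720-62304868, with 0.924 in NZO islets, against 0.946 in B6-ob/ob islets.

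For *Hk2*, the lowest of the 7 genes, a single event was listed. This cassette exon of 120 nt, exon 12 of 18 at chr6:82734848-82734967 (minus strand), had a PSI of 0.878 in NZO islets, against 0.899 in B6-ob/ob islets.

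*G6pc2* combined the highest level with an exon of intermediate inclusion. Exon 4, printed above, had a PSI of 0.475 in NZO islets, against 0.471 in B6-ob/ob islets, a difference of 0.00451. Its other cassette exons, of 110 and 112 nt, both had 0.99995 in NZO islets, against 0.99996 in B6-ob/ob islets. With exon 4, the protein-coding transcript has 355 residues. Without it, the other one keeps the 440 coding nt before the exon, reads 22 nt of the last exon in another frame and ends after 154 residues, at the TGA shown in capitals.

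A PSI between 0.4 and 0.6 was rare. As the mean over the strains, it was found for 541 of all 110932 cassette exons (0.488%) and for 12 of the 2895 in genes whose mean normalized count was 10000 or more (0.415%), *G6pc2* included. In this group of high genes, 1.80% of the cassette exons had a mean PSI of 0.1 to 0.9, against 7.22% of all cassette exons.

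The transcription start of *G6pc2* gave larger differences than its exons. A segment of 27 nt at chr2:69219971-69219997, which belongs to the upstream start of the transcript with 355 residues, had a PSI of 0.0816 in NZO islets, against 0.0113 in B6-ob/ob islets. The difference of 0.0704 stayed under the limit. The downstream start had 0.918 in NZO islets, against 0.989 in B6-ob/ob islets, so that the downstream start had the larger share in both strains. Among the annotated protein-coding transcripts, the upstream start goes with exon 4, whereas here the PSI of exon 4 was above that of the upstream start in both strains.

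The largest differences of *G6pc3* lay at its 3′ end. The proximal end segment of 210 nt at chr11:102193443-102193652 lies inside the coding sequence and ends where a processed transcript is annotated to end. Transcripts with the distal end contain it too, and its PSI as the share of the proximal end was 0.0445 in NZO islets, against 0.124 in B6-ob/ob islets, a difference of -0.0794. The distal end, with its segment of 429 nt that holds the regular stop codon and the 3′ end, had 0.956 in NZO islets, against 0.876 in B6-ob/ob islets, a difference of 0.0795. The 5 cassette exons had PSI values of 0.99671 to 0.99827, with differences of at most 0.00031 either way.

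How close an exon came to a PSI of 1 went with the level of its gene. For cassette exons with a mean PSI over 0.8, the median was 0.99995 in *G6pc2*, 0.99899 in *Slc2a2* and 0.99763 in *G6pc3*. It was 0.964 in both *Slc2a1* and *Hk1*, 0.894 in *Slc2a3* and 0.889 for the single exon of *Hk2*. Over 12261 genes with such an exon, the Spearman correlation of this median with the mean normalized count was 0.836, given as a description since all genes share the same libraries. The median was 0.895 for genes with 10 to 30 counts, 0.946 with 100 to 300, 0.993 with 1000 to 3000 and 0.99996 with at least 100000. *Slc2a3*, with a mean normalized count of 74.3, lay under the lower quartile of 0.897 for genes with 30 to 100 counts, whose median was 0.909. *Hk2*, with 19.3, lay between the lower quartile of 0.885 and the median for genes with 10 to 30. Whether PSI values of this size reflect skipped exons was not tested.

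**Figure D4:**
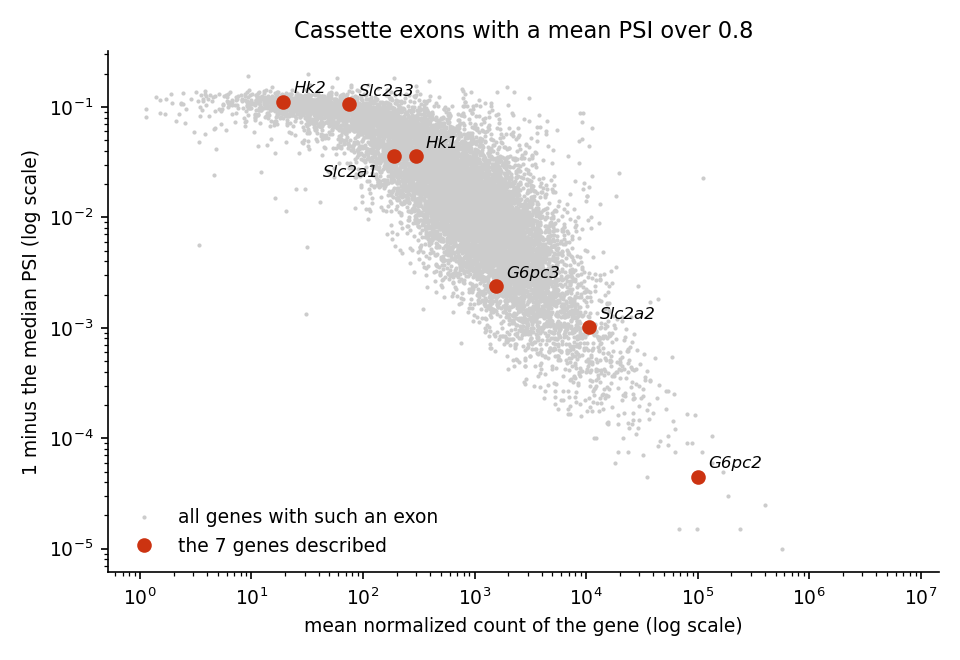
Distance of the median PSI from 1 (log scale) for cassette exons with a mean PSI over 0.8, against the mean normalized count of the gene (log scale, over all libraries). Grey points are all genes with such an exon and red points the 7 genes, which run from *Hk2*, at a median PSI of 0.889, to *G6pc2* at 0.99995.

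Described next are 26 further genes of the pathway, all in the gene table and 19 of them with splicing events. Of their 225 events, 19 in 8 genes passed the limit of 0.1 (8.44%), a share close to the 8.73% of all events. The events with the largest difference of each role are given as a description. Among 12 sugar transporter genes, *Slc2a5*, which encodes the fructose transporter GLUT5, was the highest at 3558 per kb, above *Slc2a2*, and its largest PSI difference over 11 events was 0.00176. The lowest was *Slc5a4a*, a member of the sodium/glucose cotransporter family, at 0.229 per kb. *Slc2a8*, which encodes the intracellular transporter GLUT8, had the largest difference, in a start segment of 60 nt whose PSI was 0.472 in NZO islets, against 0.853 in B6-ob/ob islets.

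Among 5 genes of hexose kinases and a regulator, *Khk*, which encodes the fructose-phosphorylating ketohexokinase, was the highest at 247 per kb. *Gckr*, a regulatory protein of liver, was the lowest at 1.52 per kb. The largest difference was in *Adpgk*, which encodes an ADP-dependent kinase, in a polyadenylation segment of 1463 nt. Its PSI was 0.0329 in NZO islets, against 0.402 in B6-ob/ob islets. The adjoining distal end segment went the other way, with 0.728 in NZO islets, against 0.448 in B6-ob/ob islets. It is 3 nt long, so that the ends set apart here lie only 3 nt from each other.

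Of 4 genes for hydrolysis and transport of glucose-6-phosphate, *Slc37a4*, the glucose-6-phosphate transporter of the endoplasmic reticulum, was the highest at 1256 per kb. *G6pc*, the phosphatase of liver and kidney, was the lowest at 0.0817 per kb. The largest difference was in *Slc37a2*, in an end segment of 196 nt with 0.581 in NZO islets, against 0.396 in B6-ob/ob islets. Among 5 further users of glucose-6-phosphate, *Gpi1*, the isomerase of glycolysis, was the highest at 1532 per kb, with a start segment of 26 nt at a PSI of 0.830 in NZO islets, against 0.703 in B6-ob/ob islets. *Pgm1*, a phosphoglucomutase, was the lowest at 308 per kb.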

How the data were processed

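Islet RNA of 5 NZO and 5 B6-ob/ob mice, grouped by the sample labels, was sequenced as 1 library per mouse. Pancreas is the source in the labels, and isolated islets in the study. Salmon, DESeq2 and mm10 are named in the submitters' processing notes, and Whippet and custom Python scripts in the study, with versions not given in the sources used here. Per gene, the authors deposited a mean signal, which is the normalized count averaged over all 10 libraries and was used, and a log2 fold change and adjusted p, which as the authors' own comparison were not used. Per splicing event, the authors deposited a PSI for either strain as a fraction, with replicates pooled, which was used, and a ∆PSI and probability, which were not. The sheets of significant genes and events were left out for the same reason. No value per mouse was used, so that no model could be fitted, and depth per sample and precision are unknown.

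The difference was computed as PSI of NZO minus PSI of B6-ob/ob, and an event was counted at an absolute difference over 0.1. Counts were divided by the longest GENCODE M21 transcript of a gene (99.1% of genes above 0 had a name there), and 99.9% of 110932 cassette exons equalled a GENCODE M21 exon. Promoters came from RefSeq (GRCm38.p6), where *Slc2a3* was not matched, and exons were read from the GRCm38 genome. The rule named all 7 genes, every event of theirs past the limit, their largest difference of each event type, and, of 26 further genes, the highest, the lowest and the largest difference of each role. A further gene of the pathway list is not reported here. Genes, lists and rules were chosen with earlier results of these data known. Alternatives were limits of 0.05 and 0.2, other sets of events, count minimums and other lengths. Python 3.11.15 was used with numpy 2.4.6, pandas 2.3.3, scipy 1.17.1 and matplotlib 3.10.9.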

Additional observations from a re-analysis of the deposited data

How the results depend on the processing

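Only pooled values entered, so no replicate could be left out. The labels give no pairing between the mice of the strains, so no paired analysis was run. Of the 64 events, 2 differed by over 0.1, 6 by over 0.05 and 0 by over 0.2. There were 0 of 49 when only cassette exons, retained introns and alternative splice sites were counted, 1 of 7 with 1 event per gene, and 2 of the 12 with a mean PSI of 0.1 to 0.9. Of all events, 8.73% passed the limit of 0.1, 7.99% in genes whose mean normalized count was 100 or more and 6.16% in those with 1000 or more. It was 16.4% at a limit of 0.05, 3.65% at 0.2 and 2.54% when only cassette exons, retained introns and alternative splice sites were counted. The order of the 7 genes by level was the same with no division by length, and 5 of 7 kept their place with the coding length, where *Slc2a1* and *Hk1* changed places. Among the 15151 genes with at least 10 counts, the share of genes below was 99.9% for *G6pc2*, 94.6% for *Slc2a2*, 88.8% for *G6pc3*, 31.4% for *Hk1*, 28.8% for *Slc2a1*, 11.5% for *Slc2a3* and 2.20% for *Hk2*, lower than before for all but *G6pc2* because the low genes were left out.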
